A study of Mus musculus with 6 samples.

Results

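Mdk, Ptn, Cytl1, Ucma, Snorc, Lect1, Scrg1, Chad and Chadl are 9 genes for secreted or membrane proteins of cartilage and for midkine, a heparin-binding growth factor. They were taken by name from a deposited table of 23351 genes. The names were chosen from a table whose control and knockout values were already known, so the difference between the groups is described for them and not tested. Of the 9 names 8 are in the table's symbol column, and Snorc is listed under its older symbol 3110079O15Rik, which RefSeq gives as its synonym. All 9 passed the expression filter, at least 1 FPKM (a read level scaled to transcript length and library depth) in 2 or more libraries, as did 11911 genes of the table.

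The cells were primary chondrocytes of C57BL/6 mice, digested with collagenase from the cartilage of the knee on postnatal day 3. All cultures, control and knockout, were grown to confluence and exposed for 24 hours to recombinant human BMP-2, a differentiation signal for cartilage cells, at 100 ng/ml. Control mice gave 3 libraries, and Uhrf1 cKO (conditional knockout) mice gave the other 3. Uhrf1 binds hemimethylated CpG sites and recruits the maintenance DNA methyltransferase. No source used here gives the Cre line, the alleles of the controls or the number of animals per culture.

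Uhrf1 itself stood at 28.2, 22.9 and 30.6 FPKM in the controls and 3.22, 3.17 and 2.73 in cKO. Of 7 chondrocyte markers, all were detected in every library and 6 fell, with a summed level of 8945 to 12144 FPKM in control and 6148 to 6570 in cKO. Skeletal muscle markers summed to 7.19 to 8.93 FPKM in control and 120 to 208 in cKO (9 of 12 tested, all 9 higher; Myod1, Myog, Ckm and Actn2 at 0 in every control and Pax7 in every library). Osteoblast and hypertrophic markers summed to 131 to 147 and 410 to 475 FPKM (5 of 8 tested, all 5 higher; Dmp1 at 0 in every control). Perichondrial and synovial fibroblast markers summed to 705 to 886 and 1138 to 1261 FPKM (6 of 6 tested, 3 higher and 1 lower), and macrophage markers to 9.89 to 49.9 and 12.3 to 19.1 (4 of 6 tested, 0 called by limma, 0 higher and 1 lower in the authors' deposited table, and 2 higher at an unadjusted p under 0.05). The authors' deposited table called 11.2% of all genes it tested lower, and no share of all genes is given here at an unadjusted p. None of 5 endothelial markers passed the filter, and Tie1 was at 0 in every library. Of all tested genes limma called 9.81% higher and 7.96% lower. The part of these cell types in the results below was not tested, and in bulk RNA fewer cells of a type and less RNA per cell cannot be told apart. Y-linked Ddx3y was above 0 in Control 1, Control 3 and cKO 1 alone. The prefix of the library names differs between all controls and all cKO, and whatever it marks cannot be told apart from genotype.

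Cartilage has no vessels of its own, and its cells are fed and signalled to through the matrix they secrete. Small proteins in that matrix act as growth factors, as ligands that hold cells to collagen, as inhibitors of vessel ingrowth and as regulators of mineral. Midkine and pleiotrophin form a growth factor family of 2 in mammals and bind heparan and chondroitin sulfate chains, syndecans, integrins and a receptor tyrosine phosphatase. Chondromodulin I, the product of Lect1 (Cnmd), is cut from a membrane precursor and inhibits endothelial growth. Ucma encodes a protein rich in gamma-carboxylated glutamate, made with vitamin K.

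The members spanned a wide range of levels. In control cells the order by mean FPKM was Lect1, Ucma, Scrg1, Snorc, Chad, Cytl1, Mdk, Chadl and Ptn. The ranges of the 3 control libraries overlapped between Scrg1 and Snorc, between Cytl1 and Mdk and between Mdk and Chadl, so those neighbours are not ordered beyond their spread. Lect1 exceeded 99.6% of the tested genes and Ptn 10.3%. In cKO cells Chadl stood above Cytl1 and Mdk in mean, and the ranges of Chadl and Cytl1, of Cytl1 and Mdk and of Mdk and Ptn overlapped. Lect1 made up 60.4 to 65.4% of the summed FPKM of the members in the 6 libraries.

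**Figure D1:**
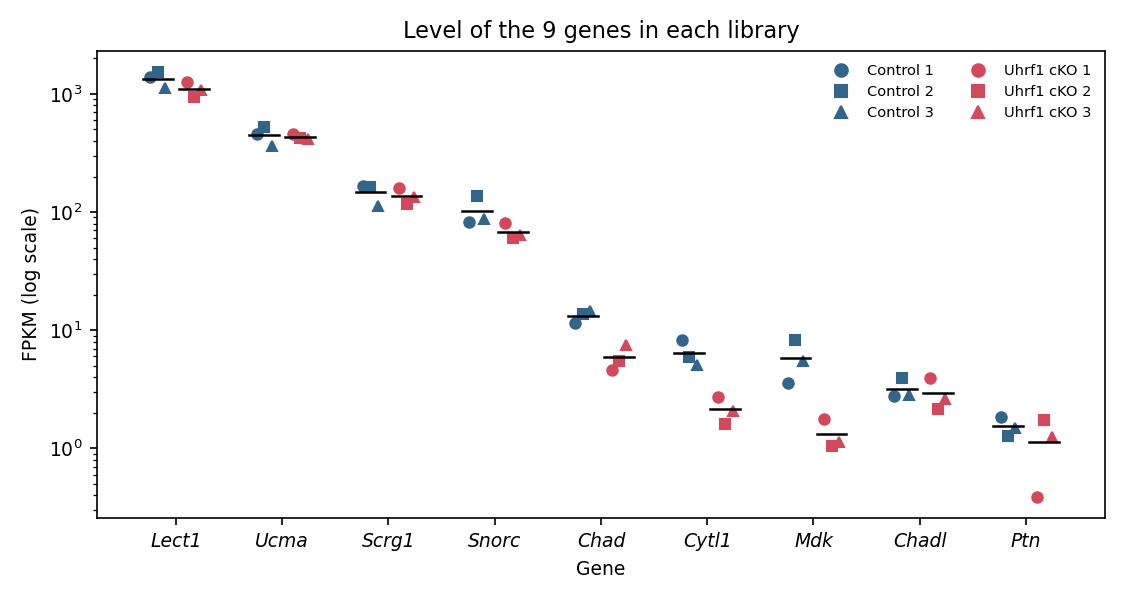
FPKM of each gene (log axis) in the 3 control and 3 cKO libraries, with a black bar at each group mean and genes ordered by control mean. The groups do not overlap for Snorc, Chad, Cytl1 and Mdk, and they overlap for the other 5 genes.

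The mean was lower in cKO for all 9 genes, against 50.3% of all tested genes. The 3 cKO libraries lay below the 3 controls, without overlap, for 4 members, Mdk, Cytl1, Chad and Snorc, and for 17.5% of all tested genes. The fit over all genes (limma on log2(FPKM + 1), Benjamini-Hochberg adjusted p under 0.05) called 3 members lower, Mdk, Cytl1 and Chad, where it called 7.96% of all tested genes lower. The authors' deposited table gave a lower level in cKO with q under 0.05 to the same 3 and to Snorc, 4 of the 7 members that it tested, and to 11.2% of the 9701 genes it tested. These counts describe genes picked with this contrast in view and support nothing further. The median fitted difference was -0.31 for the members and 0.00 for all tested genes, on the log2(FPKM + 1) scale.

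**Figure D2:**
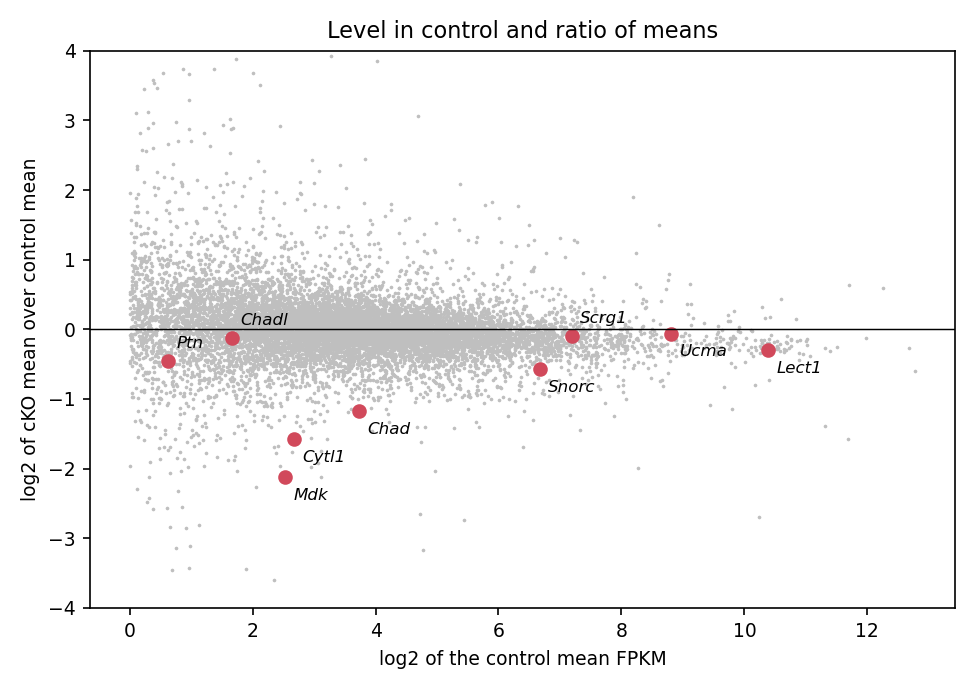
Log2 of the ratio of cKO to control mean FPKM against log2 of the control mean FPKM, for 11243 tested genes (grey) and the 9 members (red). Another 4 genes lie beyond the axis, and 664 under 1 FPKM in control or at 0 in cKO are not drawn. Mdk, Cytl1 and Chad lie lowest of the members, and Lect1, Ucma and Scrg1 lie to the right, near the level line.

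Among the growth factors and cytokines, Mdk had the largest ratio. Mdk (chromosome 2, 91929805 to 91932297, minus strand, mm10) stood at 3.57, 8.21 and 5.54 FPKM in the controls and 1.77, 1.06 and 1.14 in cKO. The highest cKO library was below the lowest control, Control 1, which was itself the lowest of 3 widely spread controls. The control mean was 5.77 ± 2.33 (SD, n = 3) and the cKO mean 1.32 ± 0.392, a ratio of 4.37. The fitted difference was -1.50 with a standard error of 0.251 on the log2(FPKM + 1) scale. It was -2.0 with a pseudocount of 0.1 and -0.75 with a pseudocount of 5, so its size follows the pseudocount while the ratio of means does not.

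Few fragments stood behind these values. FPKM of low genes came in steps, and the size of the step gave what 1 fragment was worth in each library, about 2770000 to 3260000 fragments per library. For Mdk, whose annotated transcripts run from 714 to 1054 nt, this put 6.13 to 21.5 fragments behind the control values and 1.75 to 4.30 behind the cKO values, over libraries and transcript lengths. A difference of 1 fragment thus moves a cKO value of Mdk by a large part of itself.

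Ptn (chromosome 6, 36714929 to 36810220, minus strand), which encodes pleiotrophin, the relative of midkine, was the lowest of the members. Its levels were 1.86, 1.27 and 1.5 FPKM in the controls and 0.391, 1.75 and 1.25 in cKO. The lowest value was in cKO 1, cKO 3 lay just below the lowest control, and cKO 2 lay among the controls, so the groups overlapped. The fitted difference was -0.31 with a standard error of 0.258, and -0.03 without cKO 1. The estimate of fragments was 5.45 to 14.2 in the controls and 1.56 to 12.9 in cKO.

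Cytl1 (chromosome 5, 37735519 to 37739820, plus strand) encodes a cytokine-like protein secreted by chondrocytes. It stood at 8.25, 5.89 and 5.04 FPKM in the controls and 2.73, 1.62 and 2.07 in cKO, with a clear gap between the groups. The means were 6.39 ± 1.66 and 2.14 ± 0.555 FPKM (SD, n = 3 each), a ratio of 2.99, and the fitted difference was -1.23 with a standard error of 0.199. Over its transcripts of 860 and 974 nt the estimate was 11.2 to 21.0 fragments in control and 3.43 to 6.01 in cKO. With the longer transcript the cKO values, 6.01, 4.01 and 5.01, were close to whole numbers. With the shorter one they were 5.15, 3.43 and 4.29.

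The adhesion proteins Chad and Chadl differed in their pattern. Chad (chromosome 11, 94565047 to 94569127, plus strand) encodes chondroadherin, a leucine-rich repeat protein that holds chondrocytes to the matrix through integrin alpha2 beta1. It stood at 11.4, 13.8 and 14.6 FPKM in the controls and 4.65, 5.46 and 7.57 in cKO. The means were 13.3 ± 1.65 and 5.89 ± 1.51, a ratio of 2.25, with a fitted difference of -1.07 (standard error 0.167). Its single transcript of 1680 nt gave an estimate of 55.0 to 71.3 fragments in control and 19.3 to 34.6 in cKO, so Chad was the best covered of the 3 called members.

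Chadl (chromosome 15, 81678296 to 81697287, minus strand) encodes the chondroadherin-like protein, which slows collagen fibril formation. Its levels were 2.76, 3.94 and 2.85 FPKM in control and 3.96, 2.18 and 2.63 in cKO. The highest value was in cKO 1 and the lowest in cKO 2, and the groups overlapped throughout. The fitted difference was -0.11 with a standard error of 0.201. Over its transcript lengths the estimate was 8.12 to 36.6 fragments in control and 6.19 to 34 in cKO. Exons of Chadl share 1023 bases with L3mbtl2 on the opposite strand. No source used here gives the strand setting of the counting, so reads of the 2 genes may not be fully separate. Mdk and Chrm4, and Chad and Acsf2, share a table interval but no exon bases.

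Lect1 (chromosome 14, 79637690 to 79662170, minus strand), the chondromodulin gene, was the most abundant member. It stood at 1382, 1533 and 1115 FPKM in the controls and 1257, 935 and 1087 in cKO. Control 3 lay among the cKO values, and the groups overlapped. The ratio of means was 1.23, and the fitted difference was -0.30 with a standard error of 0.133. Without Control 3 the difference was -0.42 and the fit called it lower.

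Snorc (chromosome 1, 87470271 to 87475482, plus strand) encodes a small transmembrane chondroitin sulfate proteoglycan of cartilage. It stood at 82.3, 135 and 88.2 FPKM in the controls and 81.1, 59.8 and 64.3 in cKO. The groups did not overlap, but the lowest control and the highest cKO library, Control 1 and cKO 1, were nearly level. The ratio of means was 1.49 and the fitted difference -0.55 with a standard error of 0.182. Among the 15 refits Snorc was called lower only without Control 1, and without Control 2 the difference was -0.32.

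Ucma and Scrg1 stood at like levels in both groups. Ucma (chromosome 2, 4976122 to 4985748, plus strand) measured 455, 525 and 365 FPKM in the controls and 454, 423 and 412 in cKO, and the controls spread on both sides of the cKO libraries. Its fitted difference was -0.05 with a standard error of 0.120. Scrg1 (chromosome 8, 57455923 to 57477585, plus strand), a small secreted protein first found as a scrapie-responsive gene, measured 166, 162 and 112 FPKM in the controls and 161, 117 and 135 in cKO. Its groups overlapped fully, and the fitted difference was -0.08 with a standard error of 0.160. Both differences changed sign when single libraries were left out, within -0.19 to 0.08 for Ucma and -0.27 to 0.03 for Scrg1. Their coverage was not low, with 189 to 277 fragments estimated for Scrg1.

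Libraries with Ddx3y (Control 1, Control 3 and cKO 1) and those without it (Control 2, cKO 2 and cKO 3) were also compared apart. The ratio of cKO to control was 0.389 and 0.134 for Mdk, 0.410 and 0.313 for Cytl1 and 0.357 and 0.472 for Chad. For these 3 and for Snorc every cKO library lay below every control. Any split of the libraries then gives them ratios below 1, so the split adds no support for their fall. Snorc gave 0.951 and 0.458, and Lect1 1.01 and 0.660. Ucma gave 1.11 and 0.795, Scrg1 1.16 and 0.777 and Chadl 1.41 and 0.610. Ptn gave 0.233 and 1.18, so 5 of the 9 were below 1 with Ddx3y and 8 of the 9 without it. Each set has 1 library on one side, so these ratios carry no spread. With a term for Ddx3y in the fit over all genes, the members called were again Mdk, Cytl1 and Chad. They were picked with this contrast in view, so that fit adds no independent support either.

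The spread among replicates does not use the contrast between the groups. In the controls 8 of the 9 members, all but Ptn, had a larger coefficient of variation than the median of tested genes within a factor of 2 of their level, and in cKO all 9 did. For Lect1 the values were 15.7% against 8.33% in control and 14.7% against 4.19% in cKO. For Scrg1 they were 20.4% against 7.89% and 16.0% against 5.28%, and for Snorc 28.6% against 8.21% and 16.4% against 6.01%. Mdk had 40.3% against 14.1% in control. Ucma was the steadiest member in cKO, at 5.10% against 4.63%. Lect1, Ucma, Scrg1 and Snorc, the most abundant members, thus varied more within a genotype than the median gene of like FPKM, Ucma in cKO by little. The spread in control was not particular to the members. Among the chondrocyte markers Col2a1 stood at 7047 ± 1249, Acan at 1150 ± 184 and Hapln1 at 212 ± 34.3 FPKM in control (SD, n = 3). Matn1 (309 ± 32.6) and Sox9 (37.9 ± 3.82) spread less for their level. In cKO Col2a1 was at 4675 ± 133 and Acan at 659 ± 37.8 FPKM. The genes compared were matched on FPKM and not on transcript length or fragments. A short transcript has fewer fragments at the same FPKM. Snorc (478 to 557 nt) had an estimated 55.4 to 153 fragments. The part of fragment number in these spreads was not tested.

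Windows of 300 bases around the transcription start (250 before and 50 after, RefSeq, GRCm38.p6) were found for 6 members. They are described by their CpG sites, the dinucleotide that Uhrf1 reads when it is methylated on 1 strand. Of 32851 windows the median held 7 CpG sites and the quartiles were 3 and 20. Chad held 13, Chadl 7, Ptn 6, Cytl1 and Ucma 4 each and Lect1 1, so 5 of the 6 were at or below the median. The windows of Chad and Cytl1, both called lower, and of Lect1, the most abundant, are printed with each CpG in capitals. They show the range from the most to the fewest CpG sites among the 6 windows. No window was found for Mdk, Snorc and Scrg1.

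Chad (chr11:94564797-94565096, plus strand): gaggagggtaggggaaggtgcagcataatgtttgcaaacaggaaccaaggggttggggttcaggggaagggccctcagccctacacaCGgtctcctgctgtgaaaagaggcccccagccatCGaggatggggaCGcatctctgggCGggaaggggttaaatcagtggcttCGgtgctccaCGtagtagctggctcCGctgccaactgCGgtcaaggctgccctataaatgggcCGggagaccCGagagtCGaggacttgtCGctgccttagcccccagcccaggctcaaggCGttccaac
Cytl1 (chr5:37735269-37735568, plus strand): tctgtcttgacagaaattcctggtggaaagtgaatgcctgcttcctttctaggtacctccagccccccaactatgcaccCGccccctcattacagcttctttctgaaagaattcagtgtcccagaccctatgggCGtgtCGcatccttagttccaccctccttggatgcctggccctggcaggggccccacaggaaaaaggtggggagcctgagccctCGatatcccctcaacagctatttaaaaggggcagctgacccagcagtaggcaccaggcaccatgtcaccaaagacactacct
Lect1 (chr14:79662134-79662433, minus strand): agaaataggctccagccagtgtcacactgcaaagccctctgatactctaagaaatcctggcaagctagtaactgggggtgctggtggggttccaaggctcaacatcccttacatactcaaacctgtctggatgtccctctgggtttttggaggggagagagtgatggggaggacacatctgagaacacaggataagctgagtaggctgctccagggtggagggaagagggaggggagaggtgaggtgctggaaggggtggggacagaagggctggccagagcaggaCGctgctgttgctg

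The CpG sites of Chad lie along most of its window, and the single site of Lect1 lies near the downstream end. Methylation was not measured in these libraries. The 5-letter core of the Sox motif, ACAAT read on both strands, was found in 1 of the 6 windows, that of Chadl, and in 31.0% of all windows.

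Receptors and binding partners of midkine and pleiotrophin were examined next, as 17 genes of which 13 were tested. Of these 2 rose and 4 fell, where the fit called 9.81% of all tested genes higher and 7.96% lower. The median fitted difference of the list was 0.17. The receptor phosphatase gene Ptprz1 had no signal above 0 in the controls and 0.0456, 0.0815 and 0 FPKM in cKO, and the receptor kinase gene Alk was listed at 0 in every library.

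Itga6, the integrin alpha6 subunit, fell most. Its levels were 31.8, 26.4 and 25.7 FPKM in control and 10.9, 10.8 and 10.1 in cKO, a 2.64-fold fall with tight groups (fitted difference -1.32, SE 0.108, limma adjusted p = 4.74e-05). The syndecan gene Sdc4 fell 1.40-fold (181 ± 18.7 to 130 ± 3.68 FPKM, SD, n = 3 each, limma adjusted p = 0.00499). Nrp1, the neuropilin 1 gene, fell 1.41-fold (limma adjusted p = 0.0103), a call lost without cKO 3 (limma adjusted p = 0.0514). Lrp6, a Wnt co-receptor that also binds midkine, rose 1.35-fold (limma adjusted p = 0.0142), and its call was lost without Control 2, cKO 1 or cKO 3 (limma adjusted p = 0.0518 to 0.0628). The other called genes were Sdc2, which rose 1.31-fold (limma adjusted p = 0.00367), and the nucleolin gene Ncl, which fell 1.29-fold (limma adjusted p = 0.0127) and was lost without cKO 1 or cKO 3. The syndecan genes Sdc1 and Sdc3 and the abundant integrin subunit gene Itgb1 were not called.

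Around chondroadherin, 1 of 5 tested genes rose and 4 were not called, beside 9.81% of all tested genes called higher. That gene was Itga2, the alpha2 subunit of the collagen receptor that binds chondroadherin. It measured 2.08, 1.32 and 1.22 FPKM in the controls and 9.36, 11.2 and 8.60 in cKO. Every cKO library was far above every control, a 6.33-fold rise (fitted difference 2.09, SE 0.172, limma adjusted p = 4.82e-05). Its partner Itgb1 stood at 253 ± 21.5 and 285 ± 9.20 FPKM (limma adjusted p = 0.177), and Tsku, a leucine-rich relative of Chad, at 12.5 ± 1.22 and 12.8 ± 1.26. Chad was lower in cKO and Itga2 higher, as holds for any gene that fell set beside any that rose. A link between them was not tested.

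**Figure D3:**
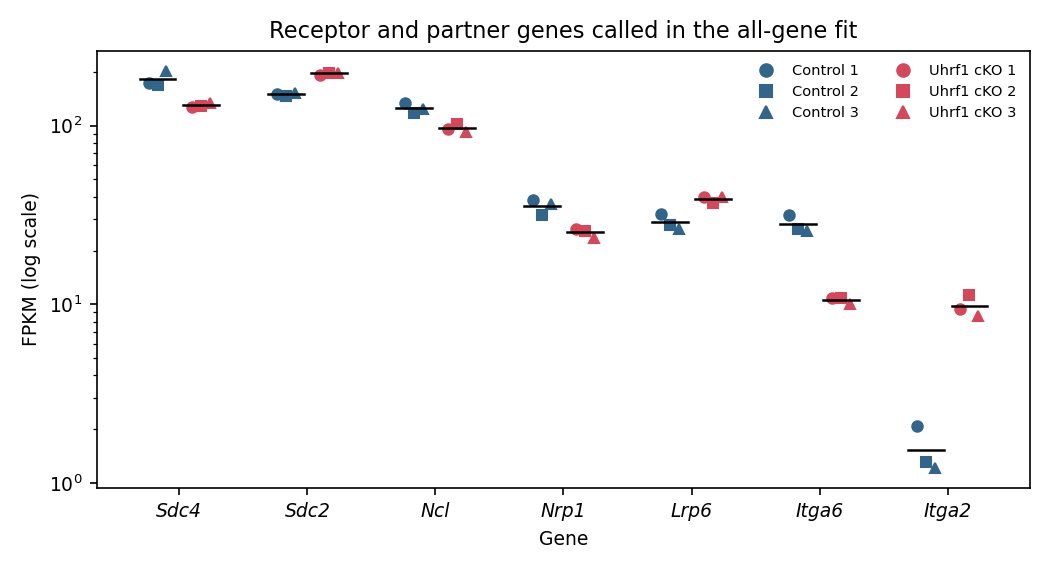
FPKM (log axis) of the called receptor and partner genes of midkine, pleiotrophin and chondroadherin in each library, with a black bar at each group mean. Itga6 lies near 10.6 in cKO against 28.0 in control, and Itga2 near 9.73 against 1.54.

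Lect1 belongs to the BRICHOS family, named for a folding domain of its precursors. Of 9 genes, its relatives and the convertase Furin, 4 were tested and 2 rose, beside 9.81% of all tested genes called higher. The authors' deposited table called 2 of the list higher and 1 lower, beside 11.2% of all genes it tested called lower. The share it called higher is not given here, so its higher count describes the list alone. Itm2b rose 2.05-fold (135 ± 14.3 to 277 ± 3.84 FPKM, limma adjusted p = 5.13e-05) and Itm2c 1.48-fold (73.1 ± 6.48 to 108 ± 2.07, limma adjusted p = 0.00182). Itm2a stood at 363 ± 71.7 and 275 ± 31.4 FPKM (limma adjusted p = 0.0805). The stomach and lung members Gkn2 and Sftpc were at 0 in every library. Gkn1 was above 0 in cKO 2 alone (0.620 FPKM), and Gkn3 in Control 2 and Control 3 alone (0.546 and 1.01). Tnmd was above 0 in Control 1 and Control 2 alone (0.816 and 0.873). None of these passed the filter.

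For vitamin K-dependent carboxylation and other Gla proteins, to which Ucma belongs, limma called 0 of 11 tested genes. Of all tested genes limma called 9.81% higher and 7.96% lower. At an unadjusted p under 0.05 it gave 1 higher and 1 lower, and the authors' deposited table called 1 higher. No share of all genes is given here for those counts, so they describe the list alone. Calu, which encodes an inhibitor of the carboxylase, had means of 686 ± 51.3 and 594 ± 13.4 FPKM (limma adjusted p = 0.0881, and 0.0437 without Control 3). Mgp, the matrix Gla protein that holds back calcification, stood at 360 ± 38.6 and 360 ± 86.2 FPKM (limma adjusted p = 0.933).

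Other secreted proteins of cartilage, a list of 18 that leaves out the members, gave 7 genes that fell and 3 that rose among 12 tested. Of all tested genes 7.96% were called lower and 9.81% higher. The list was written with earlier results of these data known, so its counts are a description. The median fitted difference of the list was -0.64. Matn1, a matrilin, fell 3.99-fold (limma adjusted p = 4.16e-06), and Frzb, a secreted Wnt antagonist, fell 2.75-fold (15.4 ± 3.57 to 5.61 ± 2.44 FPKM, limma adjusted p = 0.00697). Mia, a small secreted protein of chondrocytes, was measured at 106, 98.3 and 78.4 FPKM in control and at 44.0, 28.5 and 41.7 in cKO, a 2.48-fold fall (limma adjusted p = 0.000801). Dkk3, a secreted Dickkopf relative, rose 2.44-fold (45.5 ± 7.63 to 111 ± 4.88 FPKM, limma adjusted p = 8.06e-05). Matn1, Comp and Hapln1 are also among the chondrocyte markers.

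**Figure D4:**
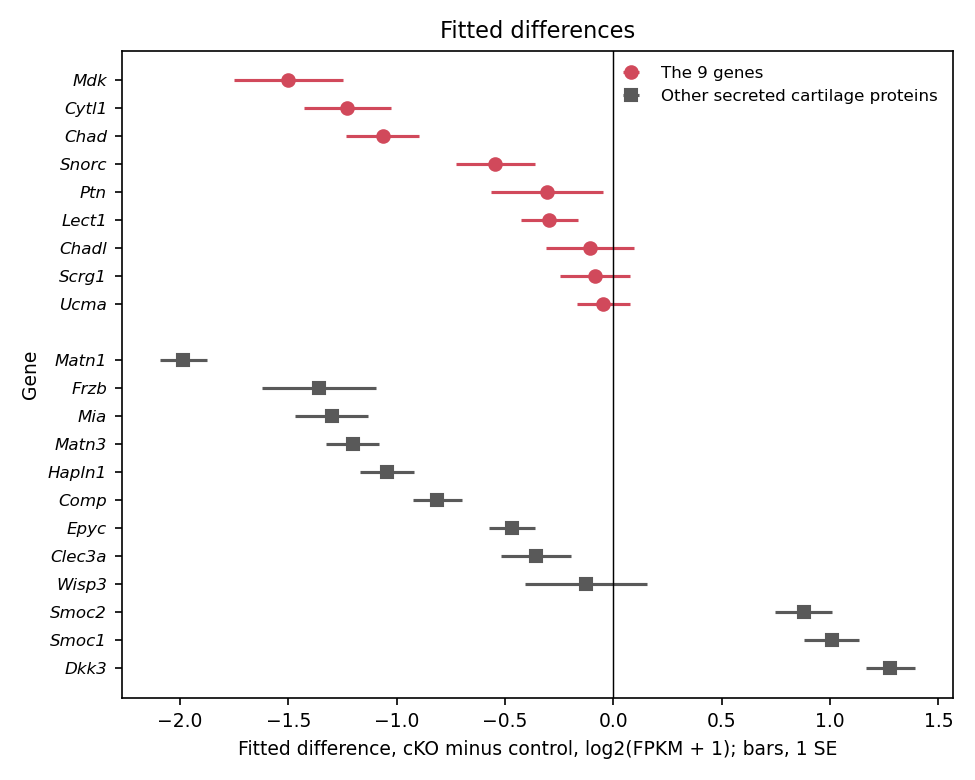
Fitted difference between cKO and control on the log2(FPKM + 1) scale, with bars of 1 standard error, for the 9 members and the 12 tested genes of the other secreted cartilage proteins. The members run from -1.50 (Mdk) to -0.05 (Ucma), and the other list runs from -1.99 (Matn1) to 1.28 (Dkk3).

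Of 8 tested chondrocyte transcription factor genes, 1 rose and 7 were not called, beside 9.81% of all tested genes called higher. The authors' deposited table called 2 of the list higher and 1 lower, beside 11.2% of all genes it tested called lower. The share it called higher is not given here, so its higher count describes the list alone. Trps1, a transcriptional repressor of the growth plate, rose 1.34-fold (limma adjusted p = 0.0230). Its call was lost without Control 2, Control 3 or any 1 of the cKO libraries (limma adjusted p = 0.0578 to 0.0843). Sox9, which activates cartilage matrix genes, stood at 37.9 ± 3.82 and 33.2 ± 2.84 FPKM (limma adjusted p = 0.268).

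Genes with the most similar profile were sought among 8380 other genes with a mean of at least 5 FPKM, by the root-mean-square distance over the 6 libraries of log2(FPKM + 1) less the control mean. For Cytl1 the nearest was Mia, at a distance of 0.139 against a median of 0.894 over the genes compared. For Mdk it was Islr (0.256 against 1.099), which measured 84.5 ± 10.1 FPKM in the controls and 26.1 ± 4.30 in cKO. For Chad it was Ung (0.140 against 0.776), and for Snorc it was Smpd3 (0.0954 against 0.473). The nearest genes of Lect1, Ucma, Scrg1, Ptn and Chadl were Mettl6, Zfp185, Lnpep, Ndufab1 and Kti12, at distances of 0.0283 to 0.127. The nearest gene lies below the median distance by construction, so that comparison tests nothing. The distance includes the difference between the groups, and the members were picked with that difference in view. For Mdk, Cytl1, Chad and Snorc the matches therefore only describe genes with a like fall. Members with little difference between the groups have many near neighbours, so their nearest gene says still less.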

How the data were processed

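RNA was measured in 3 control and 3 Uhrf1 cKO libraries. The authors deposited 1 table of 23351 genes with FPKM per library and per group mean, a log2 fold change, a test score, a p-value and a q-value, per the file headers. The mm10 build, TopHat and Cufflinks are named in the submitters' processing notes. No source used here gives their versions, the annotation, the strand setting or the scaling. A count test was not applied to FPKM.

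The 11911 genes that reached 1 FPKM in at least 2 libraries were fitted with limma 3.58.1 in R 4.3.3 (trend and robust eBayes) on log2(FPKM + 1), two-sided, Benjamini-Hochberg adjusted over all genes, threshold 0.05. The scale understates changes of low genes. The script was tested on simulated data. Ratios are of group means. No label says that each library is another animal or culture, and p-values cover the spread between these libraries, which may in part be technical. Ddx3y was above 0 in some libraries of each group and at 0 in others, so the 3 libraries of a group are not all repeats of 1 RNA sample.

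The value of 1 fragment was the lowest step of FPKM times length less 180 nt, over single-transcript genes above 1500 nt. Under 5.5 fragments, 74.2 to 79.6% of values lay within 0.1 of a whole step. Applying it to shorter or many-transcript genes is an estimate, and depth is not stated by the authors. Gene coordinates and transcript lengths are from GENCODE vM21 (GRCm38, that is mm10).

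Members and lists were chosen with earlier results of these data known. Named list genes are up to 4 called genes per list by fitted difference, or the 2 of highest level if under 2 were called. Sdc1, Sdc2, Sdc3, Ncl, Itm2a, Ptprz1, Alk, Gkn1, Gkn2, Gkn3, Sftpc, Tnmd, Col2a1, Acan and Hapln1 were named after their values were seen. Protein sequences were not analysed here. Alternatives were thresholds, filters, scalings, pseudocounts, plain eBayes, a replicate block, a Ddx3y term, leaving out each library and the authors' deposited test.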

Additional observations from a re-analysis of the deposited data

How the results depend on the processing

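Mdk, Cytl1 and Chad were called lower in each of the 15 refits and at an adjusted p under 0.01, and their 45 refitted differences were all negative. Their groups do not overlap, so leaving out a library or changing the pseudocount could not turn these differences positive. With the filter at 5 FPKM, Mdk and Cytl1 passed through their control libraries alone. The members were picked with this contrast in view, so these counts add no independent support. The number of members called was 3 to 4 with 1 library left out, Snorc being added without Control 1 and Lect1 without Control 3, and 4 in the authors' deposited test. Of 133 refitted differences over all members 128 kept their sign, and the 5 others were of Ucma, Scrg1 and Chadl with 1 library left out. Differences of Mdk and Cytl1 were -2.0 and -1.54 with a pseudocount of 0.1, and those of Mdk, Cytl1 and Chad -0.75, -0.67 and -0.75 with a pseudocount of 5.

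Over all genes, 1168 were higher and 948 lower. With 1 library left out there were 765 to 1095 higher and 503 to 931 lower (765 and 503 without cKO 3, 598 lower without cKO 1 and 625 lower without cKO 2). An adjusted p under 0.01 left 647 higher and 377 lower, and a log2 difference of at least 1 left 431 and 75. Of the genes on the 6 lists, 9 were higher and 11 lower, 7 to 9 and 8 to 14 with 1 library left out, 4 and 6 with that minimum log2 difference, and 11 and 14 in the authors' deposited test. Same-numbered libraries had correlations of deviations of 0.169, 0.0258 and -0.0443, so the numbers were not taken as pairs. With the replicate block 1151 genes were higher, 946 lower, 3 members and 9 and 12 list genes called. Few fragments were estimated behind Mdk, Ptn and Cytl1, and 6.19 to 36.6 behind Chadl. The part of fragment number in the spread of these low members was not tested.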
